A study of Mus musculus with 32 samples.

Results

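Regulatory T cells (Treg) were compared with conventional CD4 T cells (Tconv) in the livers of mice given carbon tetrachloride (CCl4), a solvent that injures hepatocytes when the liver oxidises it. All mice were male C57BL/6 animals of the Foxp3GFP genotype, in which a green fluorescent protein reports Foxp3. Treg were sorted as TCRb+CD4+Foxp3+ cells and Tconv as TCRb+CD4+Foxp3- cells. The 10 libraries described here, 5 of liver Treg after CCl4 and 5 of liver Tconv after CCl4, were chosen by their labels out of 32. Where a difference is set beside another setting, it is taken from 3 liver Treg and 3 liver Tconv libraries of control mice, or from 5 spleen Treg and 5 spleen Tconv libraries of CCl4 mice, all of the same sex, strain and genotype. The labels give neither dose nor duration of CCl4 nor the age of the mice. Whether each library stands for its own animal is not stated either, so every p-value here measures the spread between samples.

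Treg are CD4 T cells that restrain immune responses, and the transcription factor Foxp3 sets their identity. In tissues many Treg also carry a set of genes tied to repair, among them the receptor for interleukin-33 (Il1rl1, also called ST2) and the epidermal growth factor family ligand amphiregulin (Areg), which acts on Egfr of neighbouring cells. Tconv hold all other CD4 T cells of the gate: naive cells that recirculate through lymph nodes, and effector and memory cells that make cytokines such as interferon gamma and interleukin-17.

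Each library was deposited as estimated counts per transcript, which were summed to genes and are given as TMM-normalised CPM, the count relative to the scaled depth of the library. The 10 libraries held between 24513124 and 35560327 estimated counts. On log2 CPM of 9953 genes, the first principal component held 80.2% of the variance and separated the Treg libraries from the Tconv libraries, and the second held 3.8%. Cd4 had 615, 611, 567, 596 and 571 CPM in the Treg libraries, against 774, 918, 872, 989 and 920 CPM in the Tconv libraries, lower in Treg by 0.60 on the log2 scale (adjusted p = 1.75e-09). Cd3e averaged 661 ± 31.4 CPM in Treg and 775 ± 50.8 CPM in Tconv (SD, n = 5 each), and Cd8a stayed at or under 0.716 CPM in all 10 libraries. Among markers of liver cells, the summed level of 17 hepatocyte genes ran from 156 to 575 CPM in the Treg libraries and from 210 to 648 CPM in the Tconv libraries. Treg library 3, with 575 CPM, stood above the other 4 Treg libraries, which held 254 CPM or less. The macrophage list summed to between 8.71 and 43.4 CPM in Treg libraries and between 15.1 and 42.7 CPM in Tconv libraries. Sums of several other lists did not overlap. Those of the NK, gamma delta T and group 2 innate lymphoid lists are given further on. The CD8 T list of 4 genes held 16.9 to 21.5 CPM in Treg and 57.8 to 173 CPM in Tconv. Of its members 1 was called higher and 2 lower. The B cell list held 1883 to 2213 CPM in Treg and 288 to 543 CPM in Tconv. The endothelial list held 168 to 186 CPM in Treg and 470 to 582 CPM in Tconv, with 2 members called higher and 2 lower in Treg. The dendritic list held 265 to 332 CPM in Treg and 70.6 to 97 CPM in Tconv, with 2 higher and 1 lower. Of the tested members of the endothelial and dendritic lists 40.0% and 33.3% were called, against 44.7% of all genes. The part of such cells was not tested.

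For a few genes whose results are described further on, the stretch around the start site is shown first, taken from RefSeq on GRCm38.p6, from 250 bases before to 50 bases after the start. The pair for Il1rl1 is shown because this gene has separate starts and its transcripts are compared below. Of those transcripts only Il1rl1-205 starts within these windows. Areg and Ctla4 stand for the genes that rose in Treg, and Dapl1 for those that fell furthest. Capitals mark matches, on either strand, to the forkhead motif TGTTTAC in the second Il1rl1 window and in Dapl1, and to the TCF/LEF motif CTTTGAT in Ctla4. The AP-1 motif TGANTCA, had no match in these windows.
Il1rl1, distal start, chr1:40429320-40429619, + strand: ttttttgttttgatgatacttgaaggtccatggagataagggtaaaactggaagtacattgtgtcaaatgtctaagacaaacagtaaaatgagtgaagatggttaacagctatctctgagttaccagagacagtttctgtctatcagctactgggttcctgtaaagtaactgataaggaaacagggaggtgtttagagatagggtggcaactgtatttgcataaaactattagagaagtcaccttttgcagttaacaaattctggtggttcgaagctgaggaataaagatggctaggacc
Il1rl1, proximal start, chr1:40439379-40439678, + strand: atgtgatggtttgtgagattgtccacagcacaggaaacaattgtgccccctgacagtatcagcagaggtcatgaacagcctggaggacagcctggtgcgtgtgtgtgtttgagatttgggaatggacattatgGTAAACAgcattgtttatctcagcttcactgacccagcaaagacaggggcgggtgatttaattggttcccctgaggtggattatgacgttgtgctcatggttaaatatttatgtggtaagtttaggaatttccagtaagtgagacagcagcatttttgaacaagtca
Areg, chr5:91139349-91139648, + strand: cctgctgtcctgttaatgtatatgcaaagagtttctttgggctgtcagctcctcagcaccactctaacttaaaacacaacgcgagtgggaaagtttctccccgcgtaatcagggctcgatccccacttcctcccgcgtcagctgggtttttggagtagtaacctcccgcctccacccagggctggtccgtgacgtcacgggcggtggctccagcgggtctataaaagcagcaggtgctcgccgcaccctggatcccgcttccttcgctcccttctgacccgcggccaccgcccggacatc
Ctla4, chr1:60908775-60909074, + strand: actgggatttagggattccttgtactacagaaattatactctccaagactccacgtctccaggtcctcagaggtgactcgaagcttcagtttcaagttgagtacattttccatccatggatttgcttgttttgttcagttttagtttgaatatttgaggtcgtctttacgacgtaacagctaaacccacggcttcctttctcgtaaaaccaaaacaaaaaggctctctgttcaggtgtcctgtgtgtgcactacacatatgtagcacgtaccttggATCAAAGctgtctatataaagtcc
Dapl1, chr2:59484403-59484702, + strand: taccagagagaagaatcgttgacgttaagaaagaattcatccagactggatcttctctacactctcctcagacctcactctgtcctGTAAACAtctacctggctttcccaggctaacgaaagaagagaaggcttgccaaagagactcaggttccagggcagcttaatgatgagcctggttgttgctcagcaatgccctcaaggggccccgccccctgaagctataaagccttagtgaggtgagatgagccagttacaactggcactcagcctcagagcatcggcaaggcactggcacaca
The forkhead motif lay in 3.14% of 1529 windows of genes more than 2-fold higher in Treg and in 3.44% of 1133 windows of genes more than 2-fold lower, against 3.65% of all 32851 windows and 2.76% of those of the genes tested. For TCF/LEF the shares were 2.62% and 3.18%, against 3.73% of all windows and 2.78% of those tested. AP-1 was found in 7.65% and 7.06%, against 7.81% and 5.85%. A match is a run of letters and not a measured binding site.

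Of 17159 genes tested with edgeR's quasi-likelihood test, 3673 were higher and 3993 were lower in liver Treg than in liver Tconv after CCl4 at a Benjamini-Hochberg adjusted p under 0.05. These are the genes called here, and they make up 44.7% of the genes tested, 21.4% higher and 23.3% lower. More than 2-fold differences were called for 1737 higher and 1239 lower genes, and more than 8-fold differences for 406 and 312. The 5 Treg values lay wholly above the 5 Tconv values for 15.6% of the genes and wholly below them for 16.4%. The median log2 fold change over all genes tested was 0.01. With so many genes called, a list of genes is described below by how many of its members passed and, for most lists, by its median. Each such count is to be read against these shares, which are printed again beside many of the lists.

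**Figure D1:**
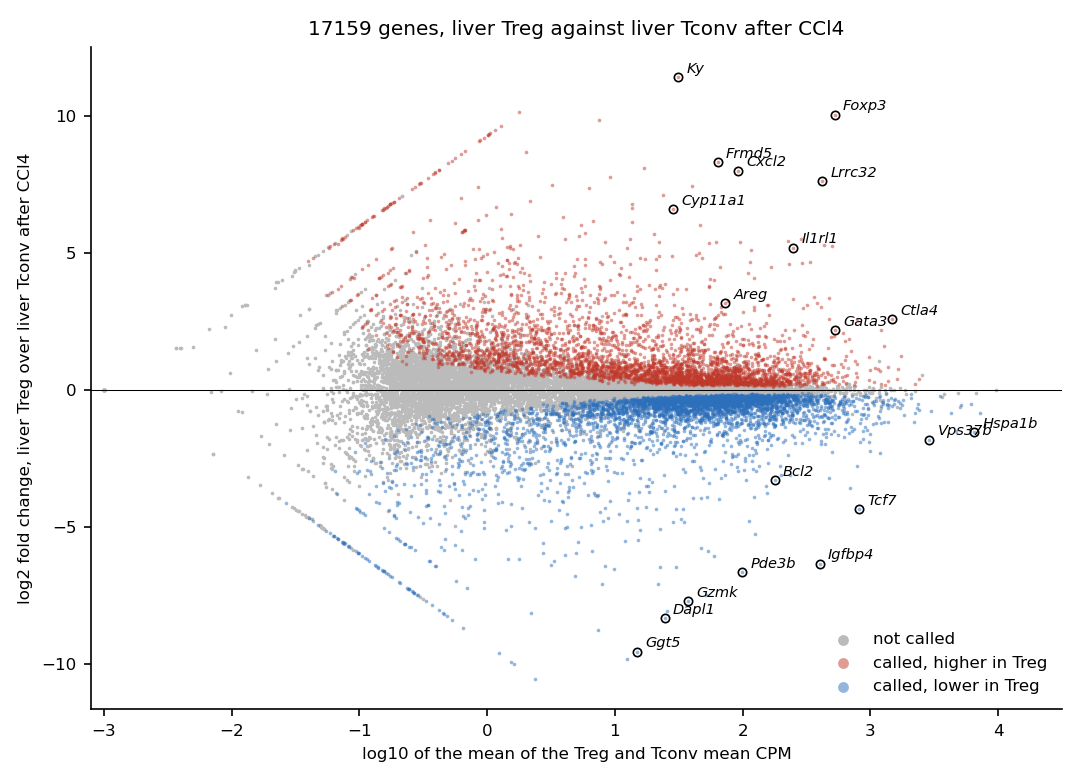
Each point is 1 of 17159 genes, with the log10 of the average of the 2 group means in CPM on the horizontal axis and the log2 fold change of liver Treg over liver Tconv after CCl4 on the vertical axis. Colour marks the 3673 genes called higher and 3993 called lower. Foxp3 lies at 10.07 and Dapl1 at -8.32; the diagonal edges at low level are genes with counts in only 1 of the groups.

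Foxp3, which defined the gate, had 956, 1089, 1047, 1064 and 1092 CPM in the 5 Treg libraries, against 0.681, 0.837, 1.02, 1.01 and 1.34 CPM in the 5 Tconv libraries. The sort thus shows in every library, with a 1077-fold difference. Of 18 genes of Treg identity, 17 rose, against 21.4% of all genes, and none fell; their median log2 fold change was 2.33. Ikzf2, which encodes Helios, a zinc finger factor of stable Treg, had 897, 796, 850, 878 and 810 CPM in Treg libraries, against 16.5, 17.4, 16.9, 27.5 and 28.7 CPM in Tconv libraries. Every Treg value lay more than 20-fold above every Tconv value. The log2 fold change was 5.31 ± 0.17 (SE; adjusted p = 2.42e-20).

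The interleukin-2 receptor alpha chain gene Il2ra reached 554, 727, 710, 569 and 712 CPM in Treg, against 47.5, 23.3, 19.2, 14.4 and 22.3 CPM in Tconv, where library 1 was the highest. Swap70, a Rac-binding signalling protein, averaged 321 ± 44.8 CPM in Treg and 14.1 ± 3.2 CPM in Tconv (SD, n = 5 each), a log2 fold change of 4.50. Members of the list with smaller differences included Nrp1 (1.49), Gpr83 (1.30) and the ectoenzymes Entpd1 (1.72) and Nt5e (1.66), which together turn extracellular ATP into adenosine. The exception was Socs2, an inhibitor of cytokine signalling, at 53.9 ± 4.81 CPM in Treg and 48.8 ± 25.5 CPM in Tconv (adjusted p = 0.618). Tconv library 1 held 92.9 CPM and the other 4 between 28.8 and 46.6 CPM, and without it Socs2 was called higher (log2 fold change 0.51, adjusted p = 0.013).

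Among 20 genes described as repressed in Treg, 19 fell, against 23.3% of all genes, and 1 rose, with a median of -3.73. The cytokine gene Il2 had 0.16, 0.355, 0, 0.0275 and 0.0395 CPM in Treg, against 11.9, 6.26, 7.6, 8.08 and 6.09 CPM in Tconv. Levels were low in both populations, but the groups were apart, and the log2 fold change was -6.03 ± 0.74 (adjusted p = 6.89e-08). Cd40lg, the ligand by which helper T cells activate B cells and macrophages, had 22.7, 23.7, 23.7, 28.4 and 24 CPM in Treg, against 322, 259, 254, 307 and 252 CPM in Tconv. The spread within each group was narrow and the fall was 11.4-fold (adjusted p = 9.06e-23).

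Pde3b, a phosphodiesterase that breaks down cyclic AMP, averaged 2 ± 1.07 CPM in Treg and 196 ± 18.3 CPM in Tconv, 101-fold lower. Igfbp4, a binding protein of insulin-like growth factors, was 81-fold lower at 9.8 ± 2.87 against 790 ± 213 CPM. Themis, an adaptor of T cell receptor signalling, fell by 2.77 on the log2 scale (adjusted p = 4.41e-23). The rise was in Ptpn13, a phosphatase, with a log2 fold change of 1.08 (adjusted p = 9.22e-05). Il7r, the interleukin-7 receptor gene that naive and memory T cells need, fell less: it had 397, 613, 564, 391 and 468 CPM in Treg, against 689, 923, 862, 619 and 594 CPM in Tconv. Treg library 2 lay above Tconv library 5, so the ranges overlapped, and the log2 fold change was -0.60 ± 0.12 (adjusted p = 9.71e-05).

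The 12 largest rises among genes that averaged at least 10 CPM in the higher group and did not overlap held, beside Foxp3 and Lrrc32, several genes not usually listed for T cells. Ky, known as a muscle gene that encodes kyphoscoliosis peptidase, had 50.1, 78.3, 75, 52.7 and 57.9 CPM in Treg libraries, against 0.0973, 0, 0, 0 and 0 CPM in Tconv libraries. All but 1 of the Tconv libraries were at 0, with 3 counts in total, and the ratio of depth-scaled counts was 3205 (95% counting interval 1096 to 15542). Frmd5, a membrane-linked FERM domain protein, had 105, 140, 136, 131 and 121 CPM in Treg, against 0.778, 0.155, 0.572, 0.326 and 0.106 CPM in Tconv. The log2 fold change was 8.34 ± 0.41 (adjusted p = 2.68e-16).

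Cxcl2, a chemokine that draws neutrophils, had 123, 197, 261, 147 and 191 CPM in Treg, against 1.23, 0.744, 0.381, 0.195 and 0.985 CPM in Tconv. Every Treg library was far above every Tconv library, and the log2 fold change was 8.02 (adjusted p = 1.47e-13). Ednrb, the endothelin receptor type B, had 49.7, 81.7, 141, 52.4 and 74.2 CPM in Treg, against 0.584, 0.124, 0.127, 0.717 and 0.739 CPM in Tconv. Library 3 was the highest of the Treg libraries for both Cxcl2 and Ednrb. Gbp2b, an interferon-induced GTPase of a family with close copies, had 2527 counts in Treg and 2 in Tconv, a ratio of 1171 (counting interval 324 to 9672). The other rises were in Cep112, a centrosomal protein (log2 fold change 8.13), the potassium channel gene Kcna4 (7.80), Muc4, a membrane mucin (7.38, from 2.15 to 25.6 CPM in Treg), Nckap5 (7.12), and Bco2, an enzyme that cleaves carotenoids (6.79).

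The 12 largest falls began with Ggt5, a gamma-glutamyltransferase that converts leukotriene C4. It had 0, 0, 0, 0.0826 and 0.119 CPM in Treg, against 22.6, 30.8, 40.4, 26.4 and 28.4 CPM in Tconv. Treg libraries 1 to 3 were at 0, and the log2 fold change was -9.56 ± 0.46 (adjusted p = 1.44e-16). Dapl1, a gene of naive and early memory T cells, had 0.213, 0.0296, 0.0913, 0.275 and 0.119 CPM in Treg, against 23.3, 62.4, 52.7, 59.1 and 47.2 CPM in Tconv. Tconv library 1 held the least of its group, and all 5 Treg libraries were under 1 CPM.

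Vipr1, the receptor for vasoactive intestinal peptide, averaged 0.565 ± 0.735 CPM in Treg and 102 ± 20.9 CPM in Tconv, a log2 fold change of -7.48. Pdlim4 fell by 8.07, Lypd6b by 8.78, the heparan sulfate enzyme Hs3st3b1 by 6.46, the lipid flippase Atp8b4 by 6.45 and Cpne7 by 6.55 on the log2 scale. The remaining 4 of the 12, Gzmk, Klrk1, Il17f and Pde3b, belong to lists described on their own.

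By difference of mean CPM rather than by ratio and with immunoglobulin, ribosomal and mitochondrial genes left out, other genes led. Ctla4, the inhibitory receptor that competes for CD80 and CD86, had 2716, 2547, 2445, 2475 and 2507 CPM in Treg libraries, against 462, 344, 328, 481 and 461 CPM in Tconv libraries. The 6.11-fold ratio was modest beside that of Foxp3, but no other gene named here differed by more CPM in this direction (adjusted p = 1.38e-14). Serinc3, a membrane protein of the serine incorporator family, averaged 2446 ± 259 CPM in Treg and 1044 ± 90.6 CPM in Tconv (log2 fold change 1.23, adjusted p = 2.93e-14). Ly6e, a GPI-anchored surface protein, averaged 2081 ± 89.8 and 1230.1 ± 75.1 CPM in the same order (0.76).

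The largest falls in CPM were in heat shock and ubiquitin genes. Hspa1b, an inducible Hsp70 chaperone gene, had 2916, 3614, 3271, 2813 and 3929.6 CPM in Treg, against 10689, 9479, 8881, 7362 and 11789.7 CPM in Tconv. The groups were apart, and the log2 fold change was -1.54 ± 0.37 (adjusted p = 0.00112). Hspa1a, its near-identical neighbour, fell by 1.50, and the way reads were split between these copies is uncertain. Hspa8, the constitutive chaperone, fell by 0.82, and the polyubiquitin gene Ubb, which shares sequence with other ubiquitin genes, by 0.50.

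Vps37b, a subunit of the ESCRT-I complex that sorts ubiquitinated membrane proteins, had 1149, 1293, 1207, 1449 and 1319 CPM in Treg, against 3591, 5035, 5383, 4394 and 4110.5 CPM in Tconv. Its fall of 1.81 ± 0.11 was the steepest among these genes of large CPM difference on the log2 scale (adjusted p = 3.35e-14). Btg1, an antiproliferative gene of resting lymphocytes, averaged 1344 ± 56.2 CPM in Treg and 3025 ± 146 CPM in Tconv (-1.17), and Tmsb4x, thymosin beta 4, averaged 4171 ± 237 and 6045 ± 452 CPM (-0.54).

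**Figure D2:**
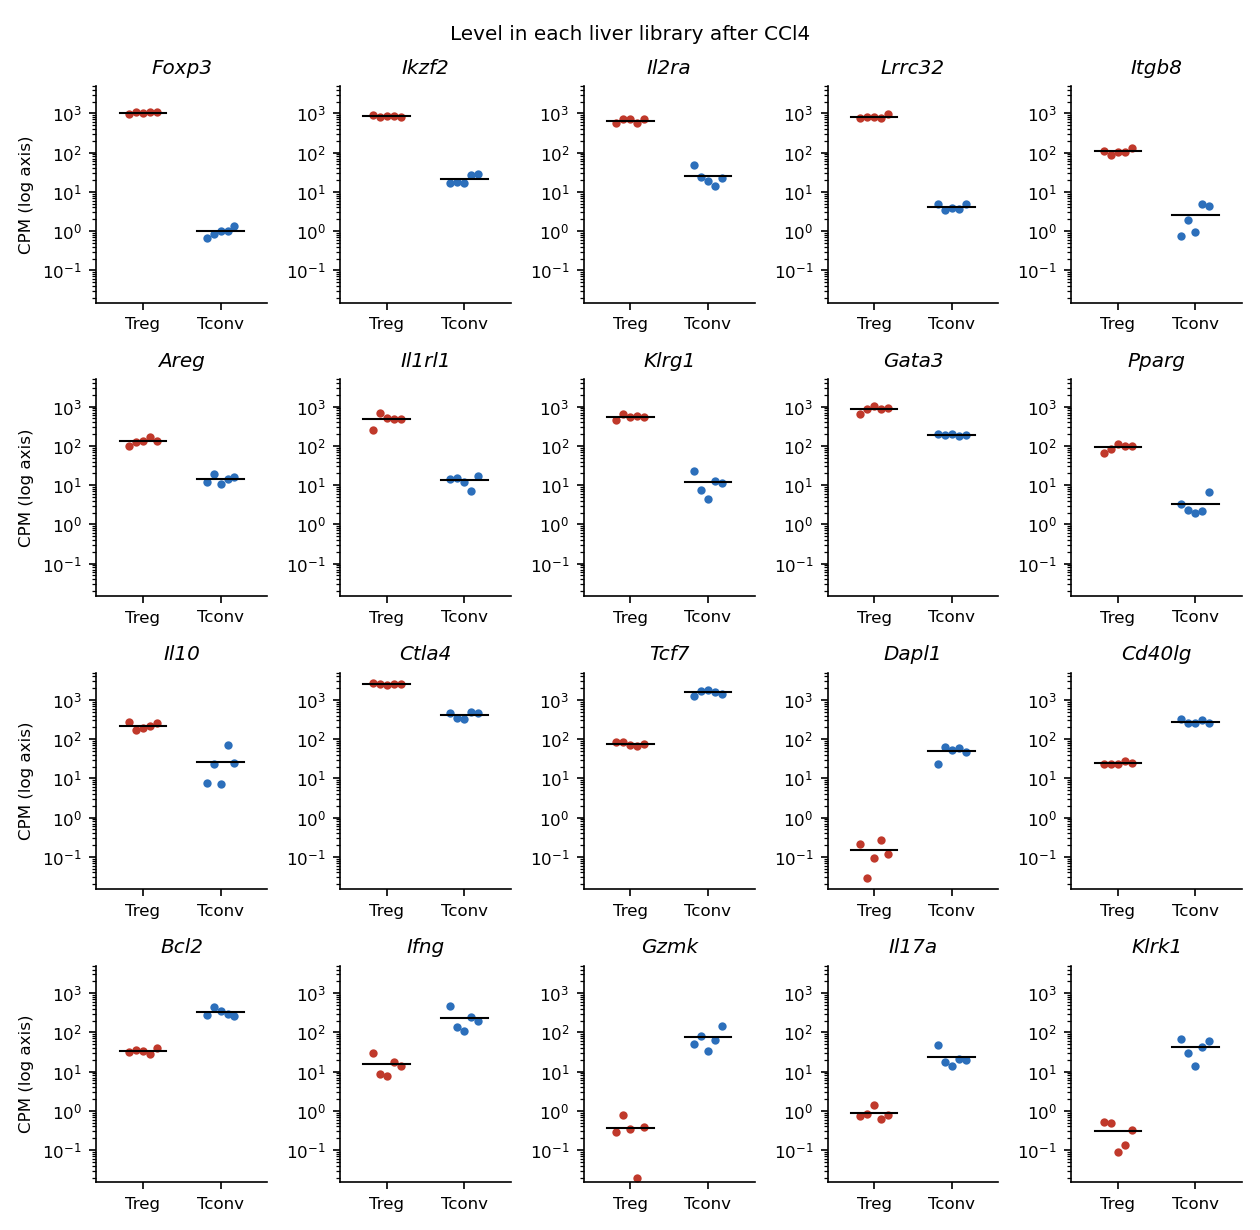
CPM on a log axis in each of the 5 liver Treg and 5 liver Tconv libraries after CCl4, with 1 point per library and a bar at the group mean, for 20 genes. Values under 0.02 CPM are drawn at 0.02. In the top rows the Treg points lie above the Tconv points, as for Foxp3 at 956 to 1092 against 0.681 to 1.34 CPM, and from Tcf7 on they lie below.

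Of 20 genes of tissue Treg and repair, 19 rose, against 21.4% of all genes, and none fell, with a median of 2.37. In CCl4 spleen 19 of them were higher in Treg as well, with a median of 2.67. Areg had 101, 125, 134, 170 and 130 CPM in Treg libraries, against 12.2, 18.9, 10.9, 14.7 and 15.7 CPM in Tconv libraries. Every Treg library held more than 5 times the highest Tconv library, and the fold was 9.1 (log2 fold change 3.19 ± 0.33, adjusted p = 3.02e-09). Il1rl1 had 256, 674, 528, 477 and 494 CPM in Treg, against 14.3, 15, 12.2, 7.23 and 17.2 CPM in Tconv. Treg library 1 held the least of its group and was still far above all Tconv libraries (log2 fold change 5.21 ± 0.28, adjusted p = 2.13e-15).

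Klrg1, a cadherin-binding receptor of differentiated Treg and effector cells, had 447, 658, 553, 592 and 539 CPM in Treg, against 23.2, 7.65, 4.42, 12.9 and 11.6 CPM in Tconv, where library 1 was the highest. The log2 fold change was 5.54 ± 0.45. Gata3, the transcription factor of type 2 cells that tissue Treg also use, had 634, 882, 1023, 850 and 930 CPM in Treg, against 198, 185, 198, 177 and 194 CPM in Tconv. It was well expressed in both, and the fold was 4.54 (adjusted p = 1.37e-16). Dgat2, which makes triglycerides, averaged 185 ± 52.5 CPM in Treg and 4.29 ± 0.999 CPM in Tconv (5.43), and Pparg, the nuclear receptor of adipose tissue Treg, 92.2 ± 18.1 and 3.3 ± 1.96 CPM (4.81).

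Ccr8, a chemokine receptor of tissue Treg, had a log2 fold change of 3.05, Penk, the precursor of enkephalins, 2.40, Tnfrsf8, which encodes CD30, 5.72, and the tetraspanin gene Cd81 2.33. Smaller rises were those of Id2 (1.08), Irf4 (0.83) and Batf (0.72), transcription factors that effector T cells share. Bhlhe40, a factor of cytokine-producing T cells, was the member not called, at 942 ± 133 CPM in Treg and 1479.9 ± 474 CPM in Tconv (log2 fold change -0.65, adjusted p = 0.0598). It was called lower without Tconv library 2 or 3 (adjusted p = 0.0396 or 0.0342) and in a fit of the 10 libraries alone (adjusted p = 0.0167).

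Among 13 suppressive mediators, 11 rose and none fell, with a median of 1.66. Il10, an anti-inflammatory cytokine, had 266, 167, 197, 221 and 253 CPM in Treg libraries, against 7.52, 22.7, 7.37, 70.4 and 24.9 CPM in Tconv libraries. The Tconv libraries spread widely, with library 4 the highest, yet the groups were apart (log2 fold change 3.05 ± 0.55, adjusted p = 3.31e-05). Ebi3, a chain of interleukin-35 and interleukin-27, averaged 37.4 ± 4.03 CPM in Treg and 4.31 ± 1.92 CPM in Tconv (3.12). Fgl2, a secreted fibrinogen-like protein, averaged 528 ± 37.8 and 66.5 ± 43.2 CPM (2.99). Not called were Il12a, the partner of Ebi3, at 0.0304 to 0.319 CPM in Treg and 0 to 0.13 CPM in Tconv, and Tgfb1, with 109, 99.6, 98.6, 95 and 106 CPM in Treg, against 114, 98.9, 104, 94.8 and 106 CPM in Tconv (log2 fold change -0.03, adjusted p = 0.847).

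TGF-beta is made in a latent form that must be held at the cell surface and released before it acts on its receptors. Of 17 genes, 7 rose and 5 fell (median 0.29), so 70.6% were called against 44.7% of all genes. Lrrc32, which encodes GARP, the surface anchor of latent TGF-beta on Treg, had 774, 813, 812, 785 and 960 CPM in Treg, against 4.8, 3.44, 3.85, 3.58 and 5 CPM in Tconv, a 201-fold difference (adjusted p = 1.07e-20). Itgb8, the integrin chain that with Itgav releases TGF-beta from this complex, had 108, 87.4, 106, 105 and 131 CPM in Treg, against 0.746, 1.92, 0.922, 5.05 and 4.29 CPM in Tconv. Both chains were higher in all 5 Treg libraries, Itgb8 by 5.38 ± 0.41 and Itgav by 3.40 ± 0.14 on the log2 scale.

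Nrros, a relative of GARP known as an anchor of latent TGF-beta in myeloid cells, rose by 1.23, and the signalling receptor gene Tgfbr1 by 1.57. On the receiving side, Tgfbr2 fell to 167 ± 9 CPM in Treg, against 657 ± 88.2 CPM in Tconv (-1.97), and the co-receptor gene Tgfbr3 to 1.74 ± 0.942 CPM in Treg, against 92.8 ± 16 CPM in Tconv (-5.77). The signal transducers Smad4 (-1.03) and Smad2 (-0.59) also fell.

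In the EGFR family, 11 of 12 genes passed the filter on low counts. Of these, 5 rose and 1 fell (median 0.40), so 54.5% were called against 44.7% of all genes. Beside Areg, the ligand gene Tgfa rose, with 1.1 to 3.79 CPM in Treg and 0.0973 to 0.912 CPM in Tconv (log2 fold change 2.18, adjusted p = 0.0134). Egfr itself was at 1.65, 1.06, 1.03, 1.24 and 1.94 CPM in Treg and 1.36, 1.92, 0.954, 2.61 and 0.598 CPM in Tconv. These values overlapped (adjusted p = 0.844). The related receptors Erbb3 (1.68) and Erbb2 (4.07) rose, as did Adam17, the protease that sheds Areg from the membrane (0.40), while Rhbdf2, which Adam17 needs to reach the surface, fell (-0.82).

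Cytokine receptors moved in both directions. Of 12 genes of the interleukin-1 family receptors and their signalling, 4 rose and 6 fell. The decoy receptor gene Il1r2 had 79.6, 88, 124, 90.9 and 113 CPM in Treg, against 22.1, 4.49, 8.04, 9.25 and 12.7 CPM in Tconv, with Tconv library 1 the highest of its group (3.13 ± 0.36). Il1rl2, the receptor for interleukin-36, had 0, 1.51, 0.426, 0.33 and 0.632 CPM in Treg, against 14.6, 15.2, 16.4, 14.6 and 17.9 CPM in Tconv. The order was thus the reverse of that of Il1rl1 and Il1r2, with a log2 fold change of -4.78. Il18r1 fell by 1.24.

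Of 15 genes of the common gamma chain receptors, 5 rose and 7 fell. Beside Il2ra, the interleukin-9 receptor gene Il9r rose by 1.99 and Il2rb by 0.77. Il4ra (-0.75), Il21r (-0.54) and the kinase gene Jak1 (-0.54) fell, and the feedback inhibitor Socs1 fell by 1.19 ± 0.12.

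The receptors of the TNF and CD28 families rose in 8 of 15 and fell in 3 (median 0.80). Tnfrsf9, which encodes 4-1BB, had 782, 965, 1097, 941 and 1098 CPM in Treg, against 17.7, 21.9, 24.9, 27.9 and 36 CPM in Tconv, 38.1-fold higher (adjusted p = 1.07e-20). Tnfrsf4, which encodes OX40, had 1095, 1351, 1479, 1342 and 1495 CPM in Treg, against 198, 224, 195, 255 and 254 CPM in Tconv. Tnfrsf18, which encodes GITR, was 4.22-fold higher, and the TNF receptor gene Tnfrsf1b, at 1924 ± 219 CPM in Treg and 632 ± 75.2 CPM in Tconv, 3.04-fold higher. Tnfrsf1a, the other receptor for TNF, was 3.09-fold lower in Treg. Cd226 (-1.59) and Cd28 (-0.52) fell as well.

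The ligands of this family ran the other way. Of 12 TNF family ligands tested, out of 14, 2 rose and 10 fell (median -1.43). Fasl, the death ligand, had 11.3, 7.51, 4.72, 8.72 and 6.36 CPM in Treg libraries, against 298, 194, 158, 200 and 227 CPM in Tconv libraries. The fall was 27.8-fold (adjusted p = 1.67e-16). Tnf itself averaged 9.65 ± 2.71 CPM in Treg and 47.6 ± 16.2 CPM in Tconv (-2.30), Lta 6.95 ± 1.45 and 21.9 ± 1.83 CPM (-1.65), and Tnfsf8, the ligand of CD30, 21 ± 6.85 and 162 ± 18.3 CPM (-2.95). Tnfsf4, the ligand of OX40, was one of the 2 that rose, with 5.27 to 17.7 CPM in Treg and 1.26 to 2.61 CPM in Tconv (2.37, adjusted p = 0.00973); the other was Tnfsf10 (0.56, adjusted p = 0.0194). The call of Tnfsf10 was lost without Tconv library 2, Tconv library 3 or Treg library 5 (adjusted p 0.0526 to 0.0727). It was also lost in a fit of the 10 libraries alone (adjusted p = 0.0684).

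All 14 coinhibitory genes were called, 8 higher and 6 lower. With Ctla4 rose Pdcd1, which encodes PD-1, at 579, 880, 930, 646 and 864 CPM in Treg, against 123, 200, 134, 204 and 362 CPM in Tconv, and Tigit at 206 ± 22.7 and 52.4 ± 13 CPM. Log2 fold changes were 1.93 for Pdcd1, 1.97 for Tigit and 1.56 for Pdcd1lg2, a ligand of PD-1. Cd96, a receptor related to Tigit, fell (-1.73), as did Btla (-1.16), Lair1 (-2.24) and Cd160 (-3.83). Lag3, with 7.09 to 13.8 CPM in Treg and 1.24 to 8.7 CPM in Tconv (1.37, adjusted p = 0.0233), was not called without Treg library 5 or any 1 of Tconv libraries 1 to 3 (adjusted p 0.0529 to 0.067).

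**Figure D3:**
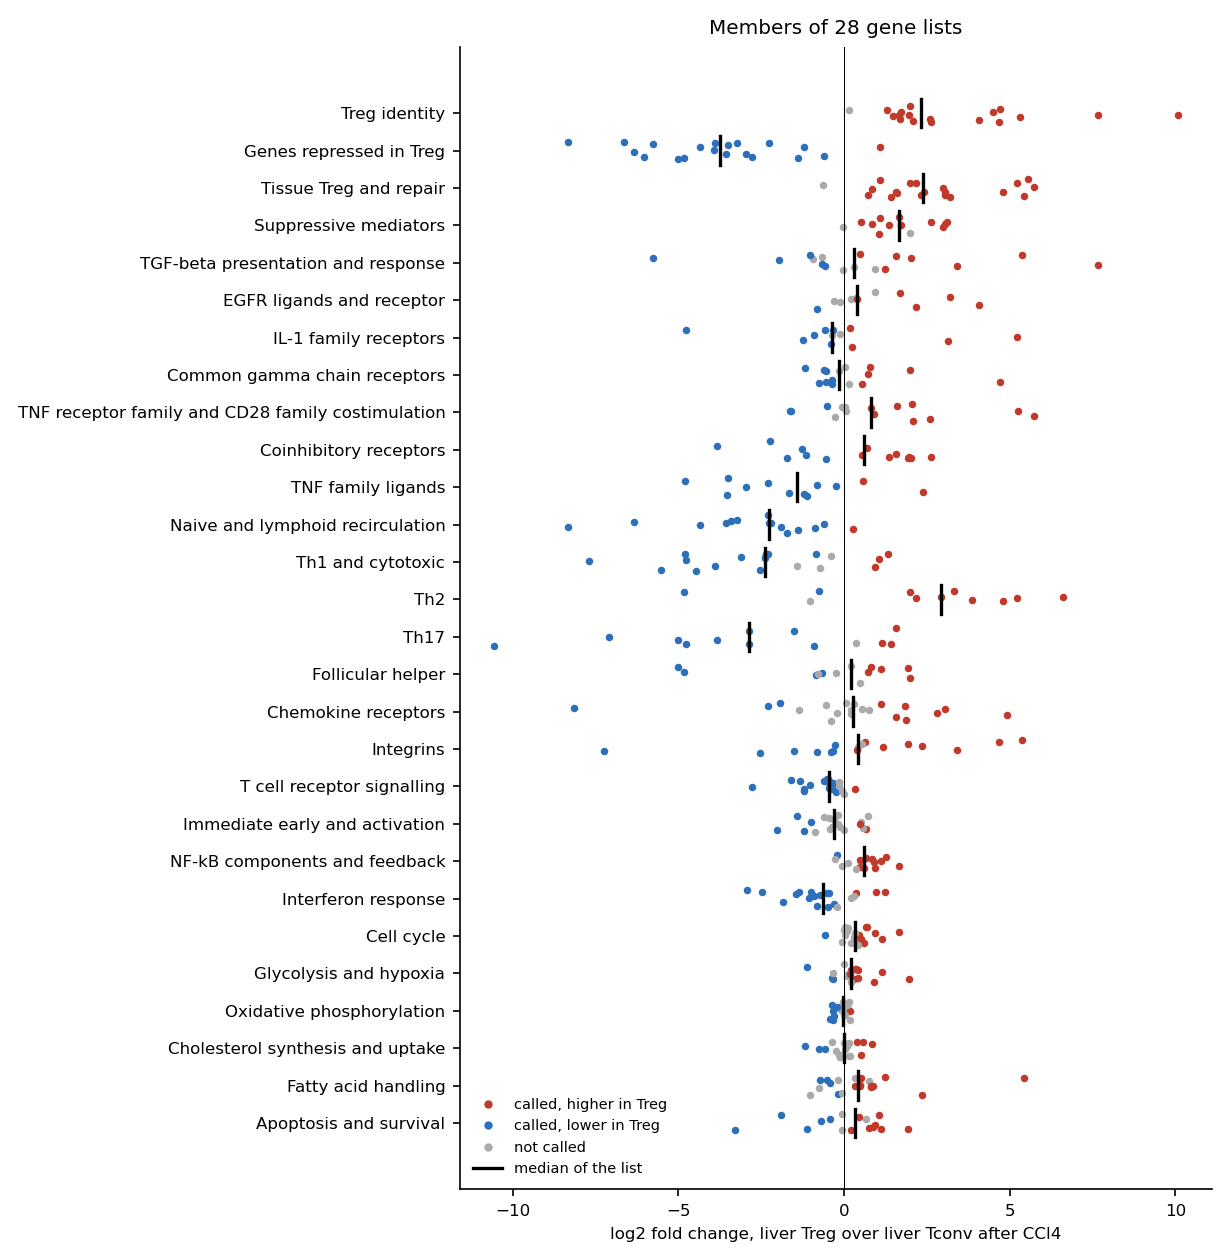
Log2 fold change of liver Treg over liver Tconv after CCl4 on the horizontal axis for each tested member of 28 gene lists, 1 row per list, with a black bar at the median of the list. Red points are called higher, blue called lower and grey not called. The medians run from -3.73 for genes repressed in Treg to 2.92 for Th2 genes; points of genes with no counts in 1 group are fitted values and not bounds.

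Naive T cells carry Tcf7, Lef1 and homing receptors that let them enter lymph nodes. Of 15 genes of the naive state and recirculation, 14 fell and 1 rose, with a median of -2.25. Tcf7, which encodes the factor TCF1, had 86.1, 84, 72.1, 67 and 75.9 CPM in Treg libraries, against 1286, 1702, 1782, 1581 and 1436 CPM in Tconv libraries. It was 20.2-fold lower with narrow spread (log2 fold change -4.34 ± 0.09, adjusted p = 2.92e-25). Satb1, a chromatin organiser of T cells, had 109, 126, 120, 74.1 and 108 CPM in Treg, against 1076, 1534, 1649.5, 1047 and 1076 CPM in Tconv (11.9-fold lower).

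The homing genes fell less steeply. Ccr7, the receptor that guides T cells into lymph nodes, averaged 404 ± 80.2 CPM in Treg and 1975 ± 609 CPM in Tconv (-2.29), and S1pr1, which lets them leave again, 351 ± 61.8 and 1626 ± 267 CPM (-2.21). Klf2, which drives S1pr1, fell by 1.91. Foxo1, a factor that maintains several of these genes, was the 1 that rose, by 0.26 ± 0.07 (adjusted p = 0.00248). Naive cells and effector cells are mixed in the Tconv gate, and in bulk samples fewer cells of a type and less RNA per cell cannot be told apart.

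Th1 and cytotoxic genes were mostly lower in Treg: 13 of 19 fell and 3 rose (median -2.39). Ifng had 29.4, 8.51, 7.73, 17.5 and 14.3 CPM in Treg, against 474, 140, 108, 240 and 195 CPM in Tconv. In both groups library 1 was the highest, and the log2 fold change was -3.90 ± 0.51 (adjusted p = 2.15e-07). Gzmk, a granzyme of memory T cells, had 0.293, 0.769, 0.335, 0 and 0.395 CPM in Treg, against 49.8, 79.4, 32.6, 63.4 and 148 CPM in Tconv (-7.71). The factor Eomes fell by 5.53, its relative Tbx21 by 2.39 and perforin, Prf1, by 2.35.

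The 3 rises of this list were Hopx (1.32), Cst7 (0.94) and granzyme B, Gzmb, at 220, 258, 169, 266 and 257 CPM in Treg, against 198, 82.5, 31.8, 99.6 and 159 CPM in Tconv. For Gzmb the ranges overlapped, and the log2 fold change was 1.04 ± 0.37 (adjusted p = 0.0223). Without Tconv library 2 or 3 the adjusted p of Gzmb was 0.0575 or 0.0622. Cxcr3, the receptor that Th1 cells use to enter inflamed tissue, had 282, 241, 167, 247 and 239 CPM in Treg, against 364, 234, 251, 327 and 360 CPM in Tconv. These overlapped too, and the difference of -0.39 missed the threshold (adjusted p = 0.0551). Without Treg library 1, Tconv library 2 or Tconv library 3 it was called lower (adjusted p 0.0245 to 0.0368).

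The Tconv gate does not separate innate-like T cells from other CD4 cells. Of 14 markers of NKT-like cells, 12 were lower in Treg and 1 was higher (median -3.05), but T cells share many of them, and Il2rb alone accounted for most of their sum, 1324 to 1700.1 CPM in Treg and 704 to 1438 CPM in Tconv. Klrk1, which encodes NKG2D, had 0.506, 0.502, 0.0913, 0.138 and 0.316 CPM in Treg, against 66.2, 30, 14.3, 43.5 and 62.1 CPM in Tconv (-7.10). The defining factor Zbtb16 was at 0.0275 to 1.43 CPM in Treg and 2.36 to 6.96 CPM in Tconv, and Klrb1c, which encodes NK1.1, at 0 to 0.244 and 1.17 to 3 CPM.

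Of 7 NK cell markers tested, out of 10, 5 were lower in Treg and none higher, and the list summed to between 16.3 and 23.9 CPM in Treg libraries and between 67.6 and 110 CPM in Tconv libraries; Ncr1 was at or near 0 in all 10. Of 6 gamma delta T cell markers, 5 were lower, summing to between 2.66 and 5.59 CPM in Treg and between 37.7 and 53.1 CPM in Tconv. The receptor constant gene Tcrg-C2, close in sequence to its neighbours, had 0 to 0.479 CPM in Treg and 12.2 to 23.5 CPM in Tconv, and Trdc 1.86 to 4.21 and 4.71 to 10.1 CPM. The part of these cells in the differences of cytotoxic and Th17 genes was not tested.

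Th2 genes showed the highest median of the 28 lists, 2.92, with 8 of 11 tested, out of 12, higher and 2 lower. Of the 8, Gata3, Il1rl1 and Pparg are also on the tissue Treg list. Cyp11a1, which encodes the enzyme that starts steroid synthesis, had 40.1, 64.2, 61.4, 47 and 69.9 CPM in Treg, against 0.584, 0.62, 0.985, 0.326 and 0.352 CPM in Tconv. That is a log2 fold change of 6.61 ± 0.34 (adjusted p = 5.92e-16). Il17rb, the receptor for interleukin-25, averaged 34.7 ± 12.9 CPM in Treg and 2.4 ± 1.11 CPM in Tconv (3.85), and Hpgds, the prostaglandin D synthase gene, 14.9 ± 2.46 and 1.5 ± 0.258 CPM (3.31).

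Il5, the eosinophil cytokine, had 3.67, 22.7, 22.3, 23.8 and 23.4 CPM in Treg libraries, against 1.62, 3.69, 2.22, 3.09 and 1.97 CPM in Tconv libraries. Treg library 1 lay just under the highest Tconv library and the other 4 far above it (log2 fold change 2.92 ± 0.52, adjusted p = 2.81e-05). Il4, the cytokine that drives type 2 responses, fell to 0.147 ± 0.159 CPM in Treg, against 4.13 ± 3.19 CPM in Tconv (-4.82). Il13 was under 1 CPM in all 10 libraries (adjusted p = 0.471). Of 8 markers of group 2 innate lymphoid cells, 3 were higher in Treg and none lower, so 37.5% were called against 44.7% of all genes. The rises were in Il9r, Il5 and Nmur1, the last at 2.9 to 10.2 CPM in Treg and 0.062 to 1.04 CPM in Tconv. The 8 markers summed to between 89.4 and 137 CPM in Treg and between 37.6 and 52 CPM in Tconv. The part of these cells in the results was not tested.

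Th17 genes fell in 9 of 13 and rose in 3 (median -2.87). Il17a had 0.745, 0.828, 1.37, 0.606 and 0.79 CPM in Treg, against 48.2, 17.4, 14, 20.4 and 19.7 CPM in Tconv, where library 1 was the highest (-4.78). Il17f fell by 7.08, and Il22, with no counts in any Treg library and 729 counts in Tconv, was at least 262-fold lower, taking 3 counts over the group as the floor. Rora (1.42), Ahr (1.13) and the chemokine receptor gene Ccr6 (1.56) rose. Among 13 follicular helper genes, 5 rose and 4 fell (median 0.22), so 69.2% were called against 44.7% of all genes. Il21 had 0.16 to 0.44 CPM in Treg and 2.97 to 27.2 CPM in Tconv (-5.01), while Tox2 rose by 1.99.

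Of 20 chemokine receptors, 7 rose and 3 fell. Ccr2, a receptor for entry into inflamed tissue, had 497, 515, 577, 578 and 596 CPM in Treg, against 229, 102, 104, 149 and 182 CPM in Tconv (1.85). Ccr3 rose by 4.91 and Ccr9 by 1.87. Cxcr6, a receptor of T and NKT cells that patrol liver sinusoids, had 75.3, 123, 116, 133 and 157 CPM in Treg, against 712, 314, 285, 441 and 549 CPM in Tconv. All Treg values were under all Tconv values, of which library 1 was the highest (-1.93 ± 0.28, adjusted p = 1.54e-06). Cxcr1 had no counts in Treg and 139 in Tconv, at least 50-fold lower.

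Of 17 integrin genes, 8 rose and 7 fell (median 0.42), so 88.2% were called against 44.7% of all genes. With Itgav and Itgb8, Itgae, which encodes CD103 and binds E-cadherin, stood at 188, 210, 209, 247 and 253 CPM in Treg, against 6.84, 16, 8.61, 6.16 and 5.66 CPM in Tconv (4.67 ± 0.27). Itgb1 fell to 455 ± 56 CPM in Treg, against 1286 ± 258 CPM in Tconv (-1.50), and Itga1, a collagen receptor chain of resident T cells, to 5.17, 3.67, 2.56, 4.87 and 3.83 CPM in Treg, against 70.2, 11.2, 8.42, 14.3 and 13.9 CPM in Tconv. For Itga1, Tconv library 1 stood far above the other 4.

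Genes of T cell receptor signalling fell as a rule by small amounts: 17 of 22 fell and 1 rose (median -0.44). Prkcq, a protein kinase C that links the receptor to NF-kB, averaged 198 ± 17.3 CPM in Treg and 497 ± 26.8 CPM in Tconv. Prkcq (-1.33) and Lat (-1.22) fell further than Lck (-0.51) or Zap70 (-0.45). Cd5, which dampens receptor signals, rose by 0.33.

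Of 15 NF-kB genes, 10 rose and 1 fell (median 0.59). Rel, a subunit that Treg need, had 338, 421, 529, 406 and 457 CPM in Treg, against 146, 113, 136, 155 and 129 CPM in Tconv (1.66 ± 0.14). Nfkb1 rose by 1.26, the inhibitor Nfkbie by 1.10 and Traf1 by 0.66, while Rela fell by 0.22. Of 19 immediate early genes, 2 rose, 4 fell and 13 were not called, so 31.6% were called against 44.7% of all genes. The values of 12 were nevertheless apart, where 15.6% of all genes lay wholly above and 16.4% wholly below. Fos had 563, 443, 418, 582 and 529 CPM in Treg, against 1089, 844, 870, 908 and 919 CPM in Tconv. All Tconv values were higher, but the SE of 0.69 came from a spread shared with the other 6 groups of libraries, and the log2 fold change of -0.87 was not called (adjusted p = 0.323). In a fit of the 10 libraries alone the adjusted p was 2.42e-05. Egr2 (-2.01) and Ier2 (-1.43) fell and Nr4a2 rose (0.67).

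Interferon response genes fell in 14 of 20, against 23.3% of all genes, and rose in 3 (median -0.63). Irf7, which amplifies type I interferon, averaged 54.2 ± 6.83 CPM in Treg and 149 ± 16.3 CPM in Tconv (-1.46), and Oasl2 fell by 2.47 and Oas3 by 1.37. Isg20 (1.24) and Oas1a (0.97), which has close copies, rose.

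Of 16 genes of apoptosis and survival, 8 rose and 5 fell (median 0.32), so 81.2% were called against 44.7% of all genes. Bcl2, a survival factor of resting T cells, had 31.5, 34.9, 33, 27.8 and 39.3 CPM in Treg, against 282, 433, 343, 288 and 268 CPM in Tconv, 9.71-fold lower (adjusted p = 6.32e-17). Bcl2l1, which encodes Bcl-xL, had 185, 210, 273, 262 and 280 CPM in Treg, against 69.2, 47.8, 50.8, 67.6 and 80.7 CPM in Tconv, 3.83-fold higher. Mcl1 fell by 1.12, and so did Bcl2l11, which encodes the death factor Bim (-1.89). Bid (0.94) and Bad (0.76), both of which promote death, rose.

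Of 22 cell cycle genes, 8 rose and 1 fell (median 0.32), so 40.9% were called against 44.7% of all genes. Mki67, the proliferation marker, had 165, 158, 140, 111 and 149 CPM in Treg, against 58.4, 38.9, 29.4, 46.5 and 53.9 CPM in Tconv (1.67 ± 0.25, adjusted p = 2.36e-06). Ccnb2 rose by 1.15 and Mcm6 by 0.66, while Pcna, the sliding clamp of DNA synthesis, fell by 0.59. Top2a was at 114 ± 9.22 CPM in Treg and 92.4 ± 15.5 CPM in Tconv (adjusted p = 0.112), and was called higher in a fit of the 10 libraries alone (adjusted p = 0.0328).

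Of 20 genes of fatty acid handling, 10 rose and 4 fell (median 0.41), so 70.0% were called against 44.7% of all genes. Besides Dgat2, Plin2, which coats lipid droplets, had 208, 243, 268, 251 and 265 CPM in Treg, against 60.8, 47.7, 45.4, 40.5 and 45.6 CPM in Tconv (2.36 ± 0.16), and Dgat1 rose by 1.25. Pnpla2, the lipase that empties droplets, fell by 0.50. Of 18 genes of glycolysis and hypoxia, 10 rose and 3 fell (median 0.22): Bnip3 (1.95) and Tpi1 (1.15) rose, and Hk2 fell (-1.12; without Tconv library 1 its adjusted p was 0.0607). Oxidative phosphorylation had 1 higher and 6 lower of 18 (median -0.02), and cholesterol synthesis 4 higher and 3 lower of 19 (median 0.00). Their called shares, 38.9% and 36.8%, lay under the 44.7% of all genes.

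Of 12 B cell markers, 4 were higher in Treg and 1 was lower, so 41.7% were called against 44.7% of all genes. Ighm, the immunoglobulin mu constant gene, had 2171, 2024, 1873, 2024 and 1845 CPM in Treg libraries, against 267, 439, 515, 496 and 434 CPM in Tconv libraries, a 4.62-fold difference. The defining B cell gene Ms4a1 stayed at 0.958 to 3.24 CPM in Treg and 0.521 to 1.92 CPM in Tconv. Cd74, the invariant chain of antigen presentation, rose by 2.28. The part of B cells in these values was not tested. Of 17 hepatocyte genes tested, 7 were lower in Treg and 1 was higher, so 47.1% were called against 44.7% of all genes. The rise was in the transferrin gene Trf (0.72, adjusted p = 0.0279). Its call was lost without Treg library 2 or 3 or Tconv library 3, 4 or 5 (adjusted p 0.0565 to 0.0877). It was also lost in a fit of the 10 libraries alone (adjusted p = 0.067). Albumin, Alb, was not among the genes called, with 2.45, 12.5, 101, 1.07 and 5.49 CPM in Treg, against 77.1, 123, 48.9, 50.1 and 39.4 CPM in Tconv (log2 fold change -1.47, adjusted p = 0.0882). Only Treg library 3 reached the Tconv range, and without it the log2 fold change was -3.66 (adjusted p = 8.55e-06). The part of free or carried hepatocyte RNA in these values was not tested.

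Counts per transcript allow the make-up of a gene's RNA to be compared. For 14 genes with several annotated transcripts, the share of the leading one was tested over the 5 and 5 libraries by two-sided exact permutation (252 splits, smallest p 0.00794). Lag3 was left out for its low level. Of 13 genes tested, 3 passed a Benjamini-Hochberg adjusted p under 0.05. Cd44, the hyaluronan receptor, had 62.2, 67.5, 67.1, 66 and 69.6% of its counts on Cd44-203 in Treg libraries, against 75.8, 72.9, 72, 73.2 and 74% in Tconv libraries. The groups did not overlap (adjusted p = 0.0344). Cd44-203 has 365 codons and 9 exons and lies on the minus strand at chr2:102812547-102901510 of GRCm38. The longer Cd44-201, with 19 exons and 780 codons, held 16.3 ± 1.48% in Treg and 5.64 ± 2.29% in Tconv.

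Lef1, the relative of Tcf7, had 54.6, 50.7, 52.5, 49.1 and 52.1% of its counts on Lef1-201 in Treg, against 45.5, 39.4, 46.1, 38.7 and 44.4% in Tconv (adjusted p = 0.0344). This transcript of 397 codons starts at position 131110471 of chromosome 3, and Lef1-203, of 331 codons, starts at 131112797. Il7r-201, the full-length form with 459 codons, held 84.7 ± 2.00% of Il7r counts in Treg and 89.3 ± 0.933% in Tconv (adjusted p = 0.0344). The Treg and Tconv values of Lef1 and Il7r did not overlap either. Without any 1 of the Tconv libraries the adjusted p of these 3 lay between 0.0516 and 0.0688. Without any 1 of the Treg libraries it stayed at or under 0.0344. The Treg minus Tconv share was -7.09 percentage points for Cd44, 8.99 for Lef1 and -4.56 for Il7r. With 1 Tconv library left out it was -6.54 to -7.5, 7.95 to 9.8 and -4.32 to -4.86 in the same order. The cause of the lost calls was not tested.

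Il1rl1 is made from separate starts, and its short form encodes a soluble receptor that binds interleukin-33 in place of the membrane form. The long form Il1rl1-201, with 567 codons, held 60, 74.7, 62.6, 74.1 and 67.6% of the counts in Treg libraries, against 82.3, 73.2, 85.2, 78.1 and 71.3% in Tconv libraries. The ranges overlapped (exact permutation p = 0.0476, adjusted p = 0.0884). Il1rl1-203 and Il1rl1-205 both have 337 codons and start at positions 40439776 and 40429570 of chromosome 1, the second of which is the distal start printed above. The annotated starts of Il1rl1-201, at 40440628, and of Il1rl1-203 lie outside both windows printed above. Il1rl1-203 held 14.5 ± 2.59% in Treg and 7.60 ± 1.39% in Tconv, and Il1rl1-205 held 14.5 ± 3.28% and 10.9 ± 2.11%. The shares of these shorter forms were not tested on their own.

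**Figure D4:**
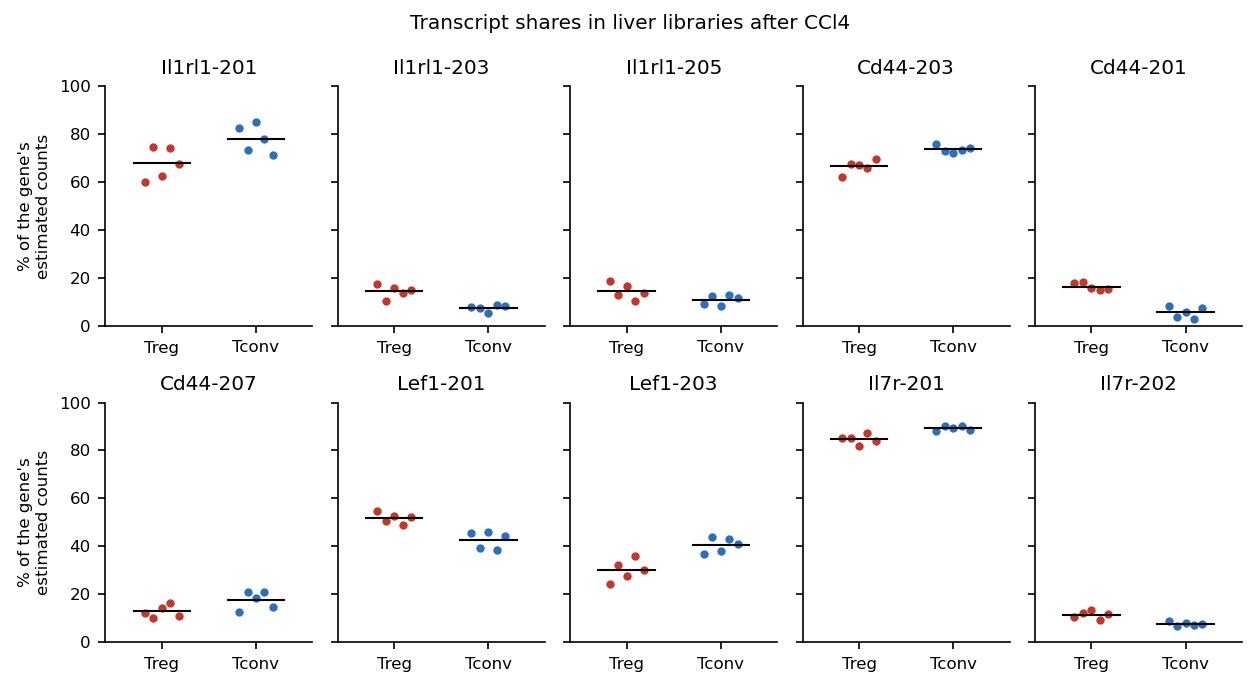
Share of a gene's estimated counts held by each of 10 transcripts, in percent, with 1 point per liver library after CCl4, Treg left and Tconv right, and a bar at the mean. Cd44-203 held 62.2 to 69.6% in Treg and 72 to 75.8% in Tconv, and Il1rl1-201 held 60 to 74.7% and 71.3 to 85.2%.

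Whether the differences are also found without injury was asked by setting them beside those between liver Treg and liver Tconv of control mice, with which they share no library. There, 2630 genes were higher and 3287 lower, 34.5% of those tested. Of the genes higher in CCl4 livers, 2001 were also higher in control livers, which is 54.5% of the 3673 in CCl4 livers and 76.1% of the 2630 in control livers. Of the lower genes 2621 were shared, 65.6% and 79.7% of the 2 lists, while 30 genes higher in CCl4 livers were lower in control livers and 16 were the other way round. Over 9145 genes, which are not independent, the log2 fold changes correlated with r = 0.893. The test of the difference itself called far fewer genes: 322 had a more positive and 303 a more negative Treg over Tconv difference in CCl4 than in control liver, 3.64% of those tested.

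Pcyt1a, the rate-limiting enzyme of phosphatidylcholine synthesis, had the smallest adjusted p among the more positive differences. It had 284, 475, 522, 439 and 515 CPM in liver Treg after CCl4, against 19.9, 22, 14.9, 15.8 and 18.4 CPM in liver Tconv after CCl4. In control livers it averaged 81.9 ± 16.7 CPM in Treg and 22.6 ± 1.09 CPM in Tconv (SD, n = 3 each), and in CCl4 spleens 29.9 ± 3.85 and 18.4 ± 2.15 CPM. The Treg over Tconv difference was larger than in control liver by 2.76 ± 0.24 on the log2 scale (adjusted p = 1.35e-08) and larger than in CCl4 spleen by 3.91 ± 0.21 (adjusted p = 1.75e-13).

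Gata3 averaged 864 ± 144 CPM in Treg and 190 ± 9.25 CPM in Tconv of CCl4 livers, and 301 ± 30.6 and 174 ± 8.45 CPM in control livers. Its difference was larger after CCl4 by 1.39 ± 0.16 (adjusted p = 3e-06). Ramp1, a subunit of the receptor for calcitonin gene-related peptide, was higher in Treg than in Tconv after CCl4, 105 ± 21.7 against 43.1 ± 6.37 CPM, and lower in control livers, 24 ± 3.96 against 49.7 ± 5.03 CPM (difference 2.33, adjusted p = 3.42e-08). The difference was also more positive for Tpd52 (1.18) and for Serpinb6a, a serpin that inhibits proteases (1.32). Afp, the fetal serum protein, averaged 10.5 ± 2.71 CPM in Treg and 8.33 ± 3.77 CPM in Tconv after CCl4, and 1.1 ± 0.408 and 10.2 ± 2.23 CPM in control livers (3.54).

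In the other direction, Tcf7 was lower in Treg than in Tconv in every setting, and by 1.50 ± 0.13 more on the log2 scale in CCl4 than in control liver (adjusted p = 8.27e-09). Treg held 77 ± 8 CPM after CCl4 and 235 ± 9.65 CPM in control livers, while Tconv held 1557 ± 200 and 1680.1 ± 101 CPM. Bcl2 (-2.24), the membrane protein gene Ms4a4b (-1.66), Evl, which extends actin filaments (-1.55), and Nod1 (-1.86), a sensor of bacterial cell walls, went the same way. Gpr83, a receptor of resting Treg, stayed higher in Treg but less so, at 28.8 ± 3.97 CPM in Treg and 11.7 ± 2.98 CPM in Tconv of CCl4 livers, and 94.4 ± 18.7 and 6.71 ± 1.75 CPM in control livers (-2.54).

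By list, 11 of 15 naive genes had a more negative difference after CCl4 and none a more positive one, against 1.77% of all genes more negative. Of 11 Th2 genes 5, and of 20 tissue Treg genes 5, had a more positive difference and none a more negative one, against 1.88% of all genes more positive. Interferon response genes were more negative in 5 of 20. Areg did not pass this test: it averaged 132 ± 24.7 CPM in Treg and 14.5 ± 3.12 CPM in Tconv after CCl4, and 72.2 ± 22.2 and 8.74 ± 2.9 CPM in control livers, and its difference changed by 0.15 ± 0.50 (adjusted p = 0.943). Nor did Il1rl1 (0.62 ± 0.39, adjusted p = 0.501), Klrg1 (1.93 ± 0.62, adjusted p = 0.0814) or Il10 (-1.14 ± 0.87, adjusted p = 0.611).

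Against the spleen of CCl4 mice, where 2875 genes were higher and 2856 lower in Treg (33.4%), more genes differed in their difference: 927 were more positive (5.4%) and 1560 more negative (9.09%) in liver, 14.5% of those tested. Of the genes higher in liver Treg 1877 were also higher in spleen Treg, 51.1% of the liver list and 65.3% of the spleen list, and of the lower genes 2118, 53.0% and 74.2%. The log2 fold changes correlated with r = 0.819 over the same 9145 genes. Of 20 tissue Treg genes, 19 were higher and 1 was lower in spleen Treg (median 2.67). Their difference was more positive in liver for 4 and more negative for 5. It was more negative for 11 of 18 Treg identity genes and more positive for 1. Of 15 naive genes 11 were more negative and none more positive, and of 11 Th2 genes 5 were more positive and 1 more negative. Ctla4 was higher in Treg in both tissues, but by 1.50 ± 0.20 less in liver (adjusted p = 4.59e-06): liver Tconv held 415 ± 73.1 CPM, against 34.1 ± 5.26 CPM in spleen Tconv.

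Tent5a, a poly(A) polymerase gene, averaged 451 ± 66.9 CPM in Treg and 44.5 ± 5.59 CPM in Tconv of CCl4 liver, and 44 ± 4.5 and 35.8 ± 4.93 CPM in CCl4 spleen (3.04 ± 0.17, adjusted p = 3.07e-13). Pqlc1 (2.19), the small GTPase gene Rab20 (2.03), Nrros (1.41) and the chromatin remodeller gene Chd7 (1.42) were also more positive in liver. Lta was lower in Treg than in Tconv of CCl4 liver, 6.95 ± 1.45 against 21.9 ± 1.83 CPM, and higher in Treg of CCl4 spleen, 62.4 ± 7.88 against 29.8 ± 2.27 CPM (-2.72, adjusted p = 4.1e-13). Arid5a, a factor that stabilises cytokine RNA, averaged 91.3 ± 15.9 CPM in Treg and 850 ± 117 CPM in Tconv of CCl4 liver, and 134 ± 11.8 and 228 ± 22.9 CPM in spleen (-2.45). Cd96 (-1.72), Evl (-2.25), Ms4a4b (-2.01) and Tcf7 (-1.95) were the others named by the rule.

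**Figure D5:**
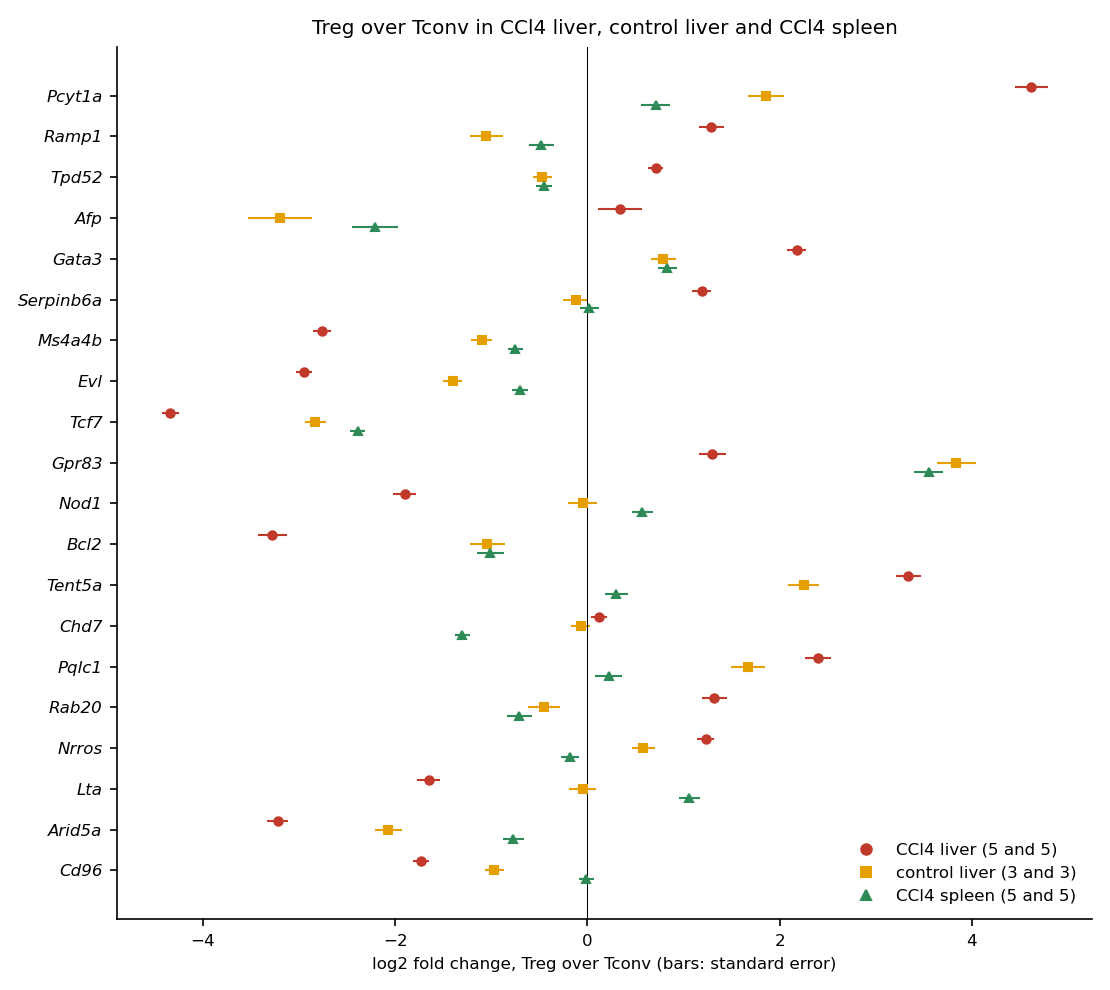
Log2 fold change of Treg over Tconv, with its standard error as a bar, for the 20 genes named in the tests of differences. Values are shown in CCl4 liver (5 and 5 libraries), control liver (3 and 3) and CCl4 spleen (5 and 5). The genes are the 6 of smallest adjusted p in each direction of each test, among called genes averaging at least 10 CPM in a group compared. Pcyt1a lies at 4.62 in CCl4 liver, 1.86 in control liver and 0.71 in CCl4 spleen, and Lta changes sign between CCl4 liver (-1.65) and CCl4 spleen (1.06).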

How the data were processed

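RNA of sorted cells was extracted from Trizol with a Qiagen kit and turned into libraries with the Clontech Ultra Low v4 and NexteraXT kits, per the labels' protocols. Per the submitters' processing notes, bcl2fastq 2.19, kallisto 0.44.0, DESeq2 and build GRCm38.p6 were used. The deposited tables hold, per the file headers, estimated counts and TPM of 118489 transcripts in each library. Which annotation release the authors used, and whether strand was read, is not given in the sources used, so reads of overlapping or antisense genes cannot be told apart.

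Estimated counts of the 98.5% of transcripts found in GENCODE M21 were summed to 35968 genes and rounded to whole numbers; the remaining transcripts held 0.684 to 0.746% of the counts. edgeR 4.0.16 (R 4.3.3) fitted all 32 libraries in 8 groups, after filterByExpr and TMM scaling, with quasi-likelihood tests and Benjamini-Hochberg adjustment over 17159 genes. The Treg over Tconv difference in CCl4 liver was also tested against those in control liver and CCl4 spleen, as differences of log2 fold changes in the same fit. The SE of a log2 fold change was taken from its size and the root of its F statistic. On simulated data for the comparison in CCl4 liver, run on 16822 genes, 200 genes were changed, all drawn from those averaging at least 5 CPM. The test recovered 94% of changes of 2-fold and 100% of changes of 4-fold, with 13 unchanged genes called, 6.28% of its calls. In the data 44.7% of genes were called, so the simulation does not measure scaling or error under so broad a difference. Recovery for genes of lower level was not measured.

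No 2 of the 32 libraries were alike enough to be 1 library deposited in duplicate: the highest correlation between any pair was 0.9973. Counting intervals of 95% and bounds against a floor of 3 counts over the group cover counting error only. Shares of transcripts used the deposited estimated counts, with TPM as an alternative, for genes averaging at least 5 CPM in both groups. Named genes were those past the thresholds in the text: the 12 largest rises and falls by ratio and the 8 by CPM among called genes that averaged at least 10 CPM in the higher group and did not overlap, the 6 of smallest adjusted p in each direction for each test of a difference, up to 4 per direction in a list, 12 genes named always, and others by value where a list was described; some genes are not reported here. The groups, the gene lists and these rules were chosen with earlier results of these data known. DESeq2 1.42.0, limma-voom 3.58.1, other filters and scalings, the replicate number as a block and leaving out each library were the alternatives.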

Additional observations from a re-analysis of the deposited data

Results flagged for a closer look

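In 420 sets of 5 libraries, 210 genes in each of the 2 groups, 1 library stood apart from the other 4 by Dixon's criterion in 35, or 8.33%. Chance gives about 1 in 20 for normally distributed values. Here CPM were used untransformed and some flagged values lay near 0, such as Ky at 0.0973 CPM, so the 2 rates cannot be compared. No explanation was tested for any of the 35.

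Tconv library 1 stood apart in 14 of the 35. It was high for Il17a (48.2 CPM), Il17f (27.6 CPM), Il4 (9.83 CPM), Il18r1 (132 CPM), Itga1 (70.2 CPM), Il2ra (47.5 CPM), Irf4 (87 CPM), Nfkb1 (112 CPM), Ccr6 (31.3 CPM), Cd226 (190 CPM), Socs2 (92.9 CPM), Nmur1 (1.04 CPM), Cpne7 (25.4 CPM) and Ky (0.0973 CPM). The same library was also the highest of its group for Ifng and Cxcr6.

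Treg library 3, which had the highest hepatocyte sum of the Treg libraries, stood apart in 5 sets: Alb (101 CPM), Ccr6 (78.1 CPM), Nrp1 (384 CPM), Oas3 (12.1 CPM) and Klrb1c (0.244 CPM). Treg library 1 stood apart for Il5 (3.67 CPM) and Erbb3 (27.5 CPM). Treg library 4 did so for Cd40lg (28.4 CPM) and Nr4a2 (359 CPM), Treg library 2 for Vipr1 (1.86 CPM) and Treg library 5 for Lrrc32 (960 CPM).

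Tconv library 4 stood apart for Il10 (70.4 CPM), Il21 (27.2 CPM), Ccr3 (2.83 CPM) and Muc4 (0.358 CPM). Tconv library 2 did so for Itgae (16 CPM), Pnpla2 (160 CPM) and Rab20 (27.1 CPM), Tconv library 3 for Prkcq (544 CPM) and Zbtb16 (6.96 CPM), and Tconv library 5 for Eomes (45.6 CPM).

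Differences that themselves differed between settings are listed because the interaction was called by edgeR's quasi-likelihood test. Between CCl4 liver and control liver the log2 difference was more positive for Afp (3.54), Pcyt1a (2.76), Ramp1 (2.33), Gata3 (1.39), Serpinb6a (1.32) and Tpd52 (1.18), and more negative for Gpr83 (-2.54), Bcl2 (-2.24), Nod1 (-1.86), Ms4a4b (-1.66), Evl (-1.55) and Tcf7 (-1.50). Between CCl4 liver and CCl4 spleen it was more positive for Pcyt1a (3.91), Tent5a (3.04), Pqlc1 (2.19), Rab20 (2.03), Chd7 (1.42) and Nrros (1.41), and more negative for Lta (-2.72), Arid5a (-2.45), Evl (-2.25), Ms4a4b (-2.01), Tcf7 (-1.95) and Cd96 (-1.72).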

How the results depend on the processing

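Of 196 named genes called between liver Treg and liver Tconv after CCl4, 191 kept call and direction wherever tested in the 18 alternatives. The exceptions were Gzmb, Hk2, Lag3, Tnfsf10 and Trf. Genes of low level were not tested in all of the alternatives, for example where a mean of at least 5 CPM was required. The number of genes called was 7121 to 7571 with any 1 library left out and 5909 to 7768 in the other settings, against 7666. Named genes not called were called in some settings: Bhlhe40 (lower) and Cxcr3 (lower) in 6 each, Top2a (higher) and Alb (lower) in 4 each, Fos (lower) in 2, and Socs2, Chd7 and Afp in 1 each. For the difference between CCl4 and control liver it was 463 to 672 with any 1 library left out, 951 (448 more positive, 503 more negative) with DESeq2 and 372 (192 and 180) in a fit of the 16 liver libraries alone, against 625; the cause was not tested. For that between CCl4 liver and CCl4 spleen it was 2241 to 2619 with any 1 left out and 2142 to 2865 otherwise, against 2487. The 12 genes named for each kept their calls in all 23 and 27 alternatives. These genes, like many others named above, were picked by their results in the same libraries, so their kept calls say little about other genes. Directions of genes not called changed for Egfr (log2 fold change 0.01 with the replicate block in a fit of the 10 libraries, -0.31 to 0.19 with any 1 library left out, the highest without Tconv library 4) and Tgfb1 (0.05 among genes of at least 5 CPM, -0.06 to 0.01 with any 1 left out, the highest without Tconv library 1). They changed for the transcript shares of Icos (-0.144 to 0.878 percentage points with any 1 library left out, below 0 without Treg library 5 or Tconv library 1 or 2), Maf (-0.0231 to 1.56, below 0 without Treg library 3) and Nfatc1 (-0.0761 to 2.27, below 0 without Treg library 5). Of 3 transcript shares called, 0 were called without any 1 Tconv library, against 3 to 4 without any 1 Treg library (the fourth was Fyn without Treg library 5, adjusted p = 0.0258), and the cause was not tested; 0 were called with the replicate block (adjusted p = 0.135), whose sign flips of 5 differences cannot reach 0.05.

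Replicate numbers were shared between Treg and Tconv of CCl4 livers. Deviations of same-numbered libraries from their group means correlated with r of 0.0252 to 0.213 over genes, and 4 of 5 libraries correlated best with their own number, a hint from the data and not the design. The numbers were not treated as pairs. With the replicate block, 3706 genes were called higher and 4062 lower, and 3388 and 3494 in a fit of the 10 libraries; Cxcr3 (adjusted p = 0.013 and 0.0139), Bhlhe40 (0.0456 and 0.0412) and Alb (0.00161 and 0.0201) were called lower in both, and Top2a higher (0.0185) and Fos lower in the fit of the 10 libraries. With the block over all groups 702 and 2627 differences were called in the tests of the Treg over Tconv difference against control liver and CCl4 spleen. Differences in low genes are limited by depth: a gene with no counts in a group is bounded only against 3 counts.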
